A study of Rattus norvegicus with 18 samples.

Results

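The Egr and Nr4a genes are the immediate early transcription factors that neurons switch on when they fire or receive a strong input, and they were followed here over 2 circadian cycles in the suprachiasmatic nuclei (SCN) of the rat, the hypothalamic nuclei that hold the master circadian clock. The set was defined by name as Egr1, Egr2, Egr3, Egr4, Nr4a1, Nr4a2, Nr4a3, Arc, Atf3 and Crem. All 10 genes had at least 1 probe set, and the 21 probe sets that carried 1 of these symbols were taken from the 8799 of the array. All samples were SCN tissue of adult male Long-Evans rats, kept in a light and dark cycle and then in constant darkness, with no other treatment or genotype. The first tissue was taken 12 h after darkness began, at circadian time (CT) 0, the start of the subjective day, and further tissue followed every 6 h up to 42 h. RNA of 5 rats was combined into 1 pool per time point, so CT 0, CT 6, CT 12 and CT 18 were each represented by 2 pools of different animals, 1 on each day. The pools were read on rat U34A GeneChips in a first run of 10 arrays and again in a technical repeat of 8 arrays. The first run holds an a and a b array at 24 h and at 36 h, which are assumed to read the same pool.

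Egr proteins are zinc finger transcription factors that bind GC-rich sites, and Nr4a proteins are orphan nuclear receptors whose activity is set mainly by how much of them is made. Synaptic input raises calcium and cyclic AMP in a neuron, kinases then activate CREB and serum response factor, and these transcribe the immediate early genes through cyclic AMP response elements (CREs) and CArG boxes. In the SCN this pathway is best known for its response to light given at night, when Egr1, Nr4a1 and Arc are induced together with Fos. The tissue here was taken in constant darkness, so the values describe the levels without a light pulse.

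The promoters of Egr4, Nr4a2 and Egr1 are printed here to show where letters of the CRE half-site and the CArG box lie in them. These genes carry the 3 tested probe sets that stood highest at CT 12 relative to CT 0. Their adjusted p was 0.456, 0.514 and 0.569 (limma), so the choice of promoters rests on no established difference. Other tested probe sets of Egr1 and Egr4 were not higher at CT 12. Their log2 differences were -0.64 and -0.006 for Egr1 and -0.20 for Egr4. Each sequence runs from 250 bases before to 50 bases after a transcription start in RefSeq, on the strand of the gene in rat build GRCr8. Capitals mark CArG boxes and the CRE half-site TGACG, which reads CGTCA where it lies on the other strand. The windows are Egr1 at chr18:26736828-26737127 on the plus strand, Egr4 at chr4:119607768-119608067 on the minus strand and Nr4a2 at chr3:62104838-62105137 on the minus strand.
Egr1: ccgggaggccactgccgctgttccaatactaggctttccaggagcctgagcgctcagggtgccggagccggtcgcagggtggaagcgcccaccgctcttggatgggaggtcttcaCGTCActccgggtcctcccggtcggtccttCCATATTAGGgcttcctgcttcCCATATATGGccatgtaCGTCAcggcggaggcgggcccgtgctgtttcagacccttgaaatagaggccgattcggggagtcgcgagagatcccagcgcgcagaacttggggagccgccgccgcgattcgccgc
Egr4: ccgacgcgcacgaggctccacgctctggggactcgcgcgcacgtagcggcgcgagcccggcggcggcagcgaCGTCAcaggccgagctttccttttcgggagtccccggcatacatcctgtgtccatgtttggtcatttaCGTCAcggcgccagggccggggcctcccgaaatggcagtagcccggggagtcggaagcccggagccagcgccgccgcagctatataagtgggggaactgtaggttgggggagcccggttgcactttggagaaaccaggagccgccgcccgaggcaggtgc
Nr4a2: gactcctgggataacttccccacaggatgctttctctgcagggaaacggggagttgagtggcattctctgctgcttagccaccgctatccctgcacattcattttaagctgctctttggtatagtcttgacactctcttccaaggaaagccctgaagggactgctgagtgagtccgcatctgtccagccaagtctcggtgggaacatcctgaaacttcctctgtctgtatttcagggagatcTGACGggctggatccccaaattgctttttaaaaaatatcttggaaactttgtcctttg

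RefSeq held 8 such windows for 6 of the 10 genes, namely Egr1, Egr2, Egr4, Nr4a1, Nr4a2 and, with 3 windows, Crem. The half-site TGACG was found on either strand in 8 of these 8 windows, against 21.2% of the 33469 rat promoters of the same length. The full CRE TGACGTCA, which contains the half-site, was found in 2 of the Crem windows, against 1.83% of all promoters. The CArG box, the site of serum response factor, was found in 2 windows, those of Egr1 and Egr2, against 1.64% of all. The Egr site GCGNGGGCG was found in 1 window, that of Nr4a1, against 4.98%, and the Nr4a site AAAGGTCA in 0 of 8, against 1.43%. These are matches of letters in both orientations, with no measurement of binding.

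Intensities are the linear values that were deposited, averaged on the log2 scale over the arrays of a pool. Tests were limited to probe sets with a pool average above 121, the median of all that are no controls. That kept 4370 probe sets in all and 11 of the 21, which stand for 7 genes: 3 for Egr1, 2 for Egr4, 2 for Nr4a1 and 1 each for Nr4a2, Nr4a3, Arc and Atf3. Egr2, Egr3 and Crem had no probe set above that level and are described at the end. Where the same gene has several probe sets, their levels are not compared, and their courses are given separately.

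Several facts of the whole series bear on these values. The median intensity was 136.5 to 152.3 on the first-run arrays and 107.9 to 127.6 on those of the repeat. Across probe sets, arrays of the same pool in different runs correlated with a median r of 0.90 over 10 pairs, and arrays of different pools in different runs with a median r of 0.90 over 70 pairs, while arrays of different pools within a run reached 0.95 over 71 pairs. Among these pairs the run thus separated arrays more than the time point did. Arrays a and b of a time, both of the first run, correlated with a median r of only 0.89 over 2 pairs. In the first run, 3 arrays, those at 12 h, 18 h and 36 h b, had hybridisation controls over 1 log2 unit above the median of all arrays. The ratio of the 3' to the 5' Gapdh control probe set was 8.55 to 35.2 in the first run and 14.3 to 24.8 in the repeat. It was lowest on the first-run array at 0 h, and its part in the members' values was not tested. Of 12 genes that mark SCN neurons, 9 were on the array and 7 were tested, among them Avp at a mean intensity of 1732 and Sst at 5541. In bulk tissue, fewer cells of a type and less RNA per cell cannot be told apart.

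Egr1, the best known of the activity-induced transcription factors in the SCN, followed the same course in both cycles on probe set AF023087_s_at. In the first run it read 4144 at 0 h, 7110 at 6 h, 9818 at 12 h, 3427 at 18 h, 3760 (a) and 5568 (b) at 24 h, 5020 at 30 h, 5267 (a) and 7289 (b) at 36 h, then 3560 at 42 h. In the technical repeat the same pools read 6277, 5514, 6590, 4082, 3968, 4632, 6113 and 3509 in the order of time. On both days the pool at CT 12 was the highest and that at CT 18 the lowest, with pool means of 8043 and 3740 on the first day and 6155 and 3534 on the second. Its values were thus highest at the end of the subjective day and lowest in the middle of the subjective night, while the first-run and repeat readings of the 0 h and 12 h pools lay far apart. The pool means of CT 12 exceeded those of CT 0 without overlap, an order that 23.2% of all tested probe sets had, and those of CT 6 exceeded those of CT 18, as in 14.1% of all. The single arrays overlapped: the repeat of the 0 h pool, at 6277, read above 2 of the 3 arrays at 36 h.

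A 24 h curve fitted to the 8 pools with limma gave AF023087_s_at an amplitude of 0.42 ± 0.13 (log2, SE, n = 8 pools) with its peak at CT 8.99, a 1.79-fold range from trough to peak. The adjusted p over all tested probe sets was 0.746 (limma's moderated F test with Benjamini-Hochberg adjustment). Rearranging the 8 pools among the hours gave p = 0.127 in an exact permutation test, where the 315 arrangements allow no p below 0.00317. CT 12 exceeded CT 0 by 0.59 ± 0.26 on the log2 scale (limma, adjusted p = 0.569), and CT 6 exceeded CT 18 by 0.60 ± 0.26 (limma, adjusted p = 0.968). The difference between CT 12 and CT 0 was 0.30 without the 12 h pool and 0.84 without the 0 h pool, and it was 0.84 in the first run alone and 0.35 in the repeat alone. The 12 h and 36 h values include 2 of the arrays with high hybridisation controls, and without those arrays the pools read 6590 at 12 h, 4082 at 18 h and 5675 at 36 h, with a difference between CT 12 and CT 0 of 0.39. Within each day the order of the 4 phases was the same without those arrays.

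The other Egr1 probe sets did not all follow this course, and M18416_at, described below, shared part of it. U75398_s_at read 119, 233, 70.2, 248, 137, 220, 76.9 and 189 in the first run, from 0 h to 42 h and with arrays a and b averaged, and 125, 181, 67.9, 137, 150, 166, 142 and 180 in the repeat. It was lowest at 12 h in both runs, where AF023087_s_at was highest, and the pool means of the 2 probe sets correlated with r = -0.68 over the 8 pools. All 4 pools of CT 6 and CT 18 were above all 4 pools of CT 0 and CT 12, an arrangement found in 1.92% of the tested probe sets. A comparison of these phases was then added, chosen after this pattern was seen, and it gave a difference of 0.85 ± 0.16 (limma, adjusted p = 0.344). The difference was 1.20 in the first run and 0.51 in the repeat. Arrays a and b at 36 h differed 3.01-fold on this probe set.

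The same comparison set CT 6 and CT 18 below CT 0 and CT 12 in the other tested Egr1 probe sets, by -0.52 ± 0.20 for M18416_at (limma, adjusted p = 0.632) and by -0.36 ± 0.15 for AF023087_s_at (limma, adjusted p = 0.662). Without the arrays with high hybridisation controls these differences were -0.18 and -0.23, and for M18416_at the first run alone gave -0.90 and the repeat alone -0.14. M18416_at had pool means of 372, 285, 287, 195, 233, 178, 299 and 178 from 0 h to 42 h, and its arrays a and b differed 2.35-fold at 24 h and 2.65-fold at 36 h. It correlated with AF023087_s_at with r = 0.67 over the 8 pools. Like that probe set it was lowest at CT 18 within each day, on the second day nearly level with CT 6. M18416_at was highest at 36 h on the second day but at 0 h on the first. Its fitted 24 h amplitude was 0.14 ± 0.18, which is within its error. The 4th Egr1 probe set, rc_AI176662_s_at, had a mean of 75.5 and was below the level tested. Its lowest pools were those at 12 h and 36 h, at 57.1 and 59.9, as for U75398_s_at, with a 4.46-fold difference between arrays a and b at 36 h. The probe sets of Egr1 thus gave different courses, and the files used here do not say which part of the transcript each one covers.

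**Figure D1:**
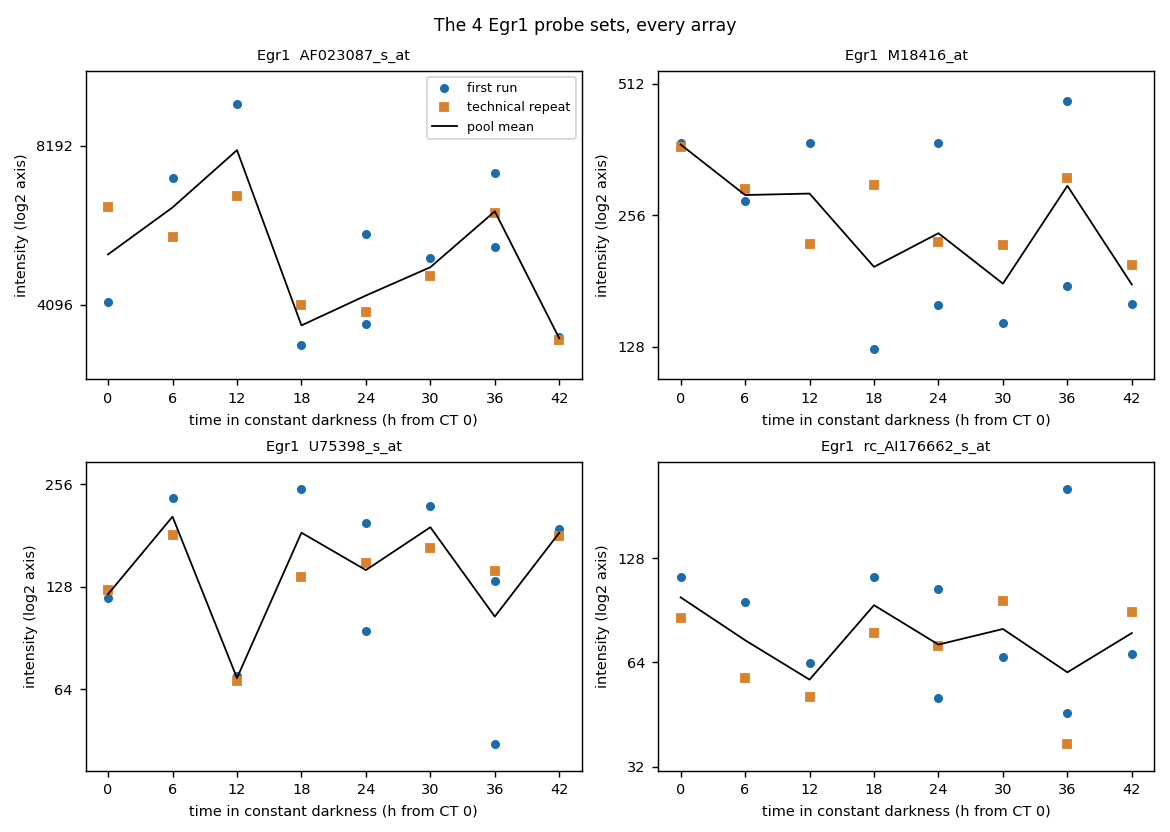
Intensity of the 4 Egr1 probe sets on a log2 axis against hours in constant darkness from CT 0, with 1 point per array, circles for the first run, squares for the technical repeat and a line through the pool means. Within each day AF023087_s_at has its highest pool mean at CT 12, at 8043 and 6155, while U75398_s_at has its lowest there, at 69.0 and 105.

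Egr4, the family member with the most restricted, mainly neuronal expression, had the lowest rhythm p of the set on probe set rc_AI144873_at. In the first run it read 110 at 0 h, 155 at 6 h, 379 at 12 h, 200 at 18 h, 298 (a) and 264 (b) at 24 h, 265 at 30 h, 304 (a) and 211 (b) at 36 h, then 335 at 42 h. In the repeat it read 75.9, 235, 180, 144, 67.9, 120, 188 and 189. The lowest reading of each run was at CT 0, at 0 h in the first run and at 24 h in the repeat, and both CT 12 pools lay above both CT 0 pools, at 261 and 218 against 91.5 and 138. The 24 h pool was the one on which the runs differed most, with first-run arrays well above the repeat.

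The fitted amplitude of rc_AI144873_at was 0.55 ± 0.14 (log2, SE, n = 8 pools) with a peak at CT 12.6, a 2.14-fold range from trough to peak (limma, adjusted p = 0.746; exact permutation test, p = 0.0254). CT 12 exceeded CT 0 by 1.09 ± 0.27, a 2.12-fold difference (limma, adjusted p = 0.456), with a 95% interval of 0.48 to 1.70. That difference was 0.82 in the first run, 1.36 in the repeat and 0.75 without the 0 h pool. Without the arrays with high hybridisation controls the pools read 180 at 12 h and 239 at 36 h, still above both CT 0 pools. The 12 h pool was then below the 6 h pool, at 191, the highest pool was that at 42 h, at 252, and the amplitude was 0.44. The other Egr4 probe set, rc_AI145177_f_at, did not share the difference between CT 12 and CT 0. Its pool means lay between 320 and 415, those of CT 0 above those of CT 12, and CT 12 minus CT 0 was -0.20 ± 0.18 (limma, adjusted p = 0.774). The suffix f marks a probe set whose probes match several members of a sequence family.

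The 5 genes whose pool means were most like those of rc_AI144873_at were Lenep (r = 0.97), Pigl (r = 0.95), Cyp2e1 (r = 0.93), Ptger3 (r = 0.93) and Zmym3 (r = 0.91), each over the same 8 pools. All of them were lowest in the 0 h pool and highest at 12 h or 42 h. None is a member of the set, and all these values share the same arrays.

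Among the orphan nuclear receptors, Nr4a2 (Nurr1) was the one with its lowest pool mean of each day at CT 0, on its tested probe set. On probe set U01146_s_at it read 129, 199, 127, 161, 172 and 156 on the arrays at 0 h, 6 h, 12 h, 18 h, 24 h a and 24 h b of the first run, then 219 at 30 h, 216 and 354 at 36 h a and b, and 135 at 42 h. In the repeat it read 70.7, 106, 138, 107, 86.1, 131, 182 and 157. The 36 h pool was the highest in both runs, at a pool mean of 224, and the 0 h pool was the lowest mean, at 95.5. The pools of CT 12 were above those of CT 0, but the 12 h pool did not stand out from its neighbours at 6 h and 18 h. In the first run alone the lowest reading was at 12 h on the first day and at 42 h on the second.

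CT 12 exceeded CT 0 by 0.70 ± 0.25 in U01146_s_at (limma, adjusted p = 0.514), by 0.37 in the first run alone and by 1.02 in the repeat alone. Without the 36 h pool it was 0.44 and without the 12 h pool 1.05. The fitted curve peaked at CT 11.0, with an amplitude of 0.36 ± 0.13 (limma, adjusted p = 0.746; exact permutation test, p = 0.0921). Levels on the second day were 0.36 ± 0.15 above those of the first (limma, adjusted p = 0.997), and 0.23 above without the 12 h pool. The other Nr4a2 probe set, L08595_at, had a mean of 120.9 and fell just under the level of 121.3 that was needed for a test. Its pool means were 142, 123, 163, 62.7, 112, 138, 153 and 108, highest at CT 12 and lowest at CT 18 on both days, where the low value at 18 h came from a first-run array at 22.8 against 173 in the repeat. The repeat alone did not show this course: 18 h was its highest pool, and CT 12 was the highest phase of neither day.

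Nr4a1 (Nur77), the receptor most often used as a marker of recent activity, showed no difference between phases beyond the spread of its pools. The pool means of U17254_at lay between 151 at 18 h and 247 at 36 h, and those of U17254_g_at between 199 at 18 h and 313 at 30 h. Their fitted amplitudes were 0.07 ± 0.12 and 0.14 ± 0.10 (limma, adjusted p = 0.958 and 0.832). The 18 h pool was the lowest of the first day and of all 8 on both probe sets, but the 42 h pool at the same phase, at 187 and 253, was not. For U17254_at the 18 h pool read 94.6 in the first run, on an array with high hybridisation controls, and 242 in the repeat.

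Nr4a3 (Nor1) read 272, 189, 291, 170, 165, 168, 192 and 29.4 in the first run on probe set X86003_at, with arrays a and b averaged, and 368, 128, 144, 120, 178, 168, 180 and 237 in the repeat. The first-run array at 42 h was far below all others, including the repeat of the same pool, and it alone set the low mean of 83.5 for that pool. CT 6 and CT 18 were below CT 0 and CT 12 by -0.68 ± 0.23 (limma, adjusted p = 0.632), by -0.99 in the first run and by -0.37 in the repeat. The 4 and 4 pool means did not overlap, as in 1.42% of the tested probe sets, but they overlapped in each run alone. In the repeat the 42 h pool, at 237, was above the pools at 12 h, 24 h and 36 h. In the first run the 24 h pool, at 165, was below that at 6 h, at 189. The 24 h amplitude was 0.31 ± 0.22 (limma, adjusted p = 0.830). That amplitude was 0.13 without the 42 h pool and 0.67 in the first run alone. The other Nr4a3 probe sets were below the level tested. Of these, rc_AI176710_at had its highest pool mean at 0 h, at 221 against 68.8 to 126 in the other pools, and 0 h was the highest in both runs. rc_AI145834_at had a mean of 22.2 and 4 arrays at or below the floor of 12.1.

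Arc, an effector that acts at the synapse rather than a transcription factor, varied little. Its first-run arrays read 356, 454, 420, 426, 347 and 409 (24 h a and b), 406, 391 and 444 (36 h a and b), and 348, and the repeat arrays 304, 396, 358, 376, 281, 346, 289 and 331. It was highest at 6 h in both runs and lower in the repeat in 8 of 8 pools, which was so for 17.8% of all tested probe sets. The reverse, a repeat above the first run in all pools, occurred in 0 members and in 13.2% of all. The amplitude was 0.10 ± 0.09 (limma, adjusted p = 0.881), and the pools spanned a 1.30-fold range.

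Atf3, a stress-induced member of the ATF and CREB family that mostly represses, read 225, 188, 313, 235, 180 and 332 (24 h a and b), 247, 234 and 278 (36 h a and b), and 193 in the first run, and 187, 129, 192, 248, 140, 115, 269 and 187 in the repeat. Both CT 6 pools, at 156 and 169, were below both CT 18 pools, at 241 and 190, and both CT 0 pools were below both CT 12 pools. The fitted peak was at CT 15.1 with an amplitude of 0.28 ± 0.11 (limma, adjusted p = 0.762; exact permutation test, p = 0.146). CT 6 minus CT 18 was -0.40 ± 0.21 (limma, adjusted p = 0.968). That difference was -0.82 in the repeat alone and 0.02 in the first run alone.

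**Figure D2:**
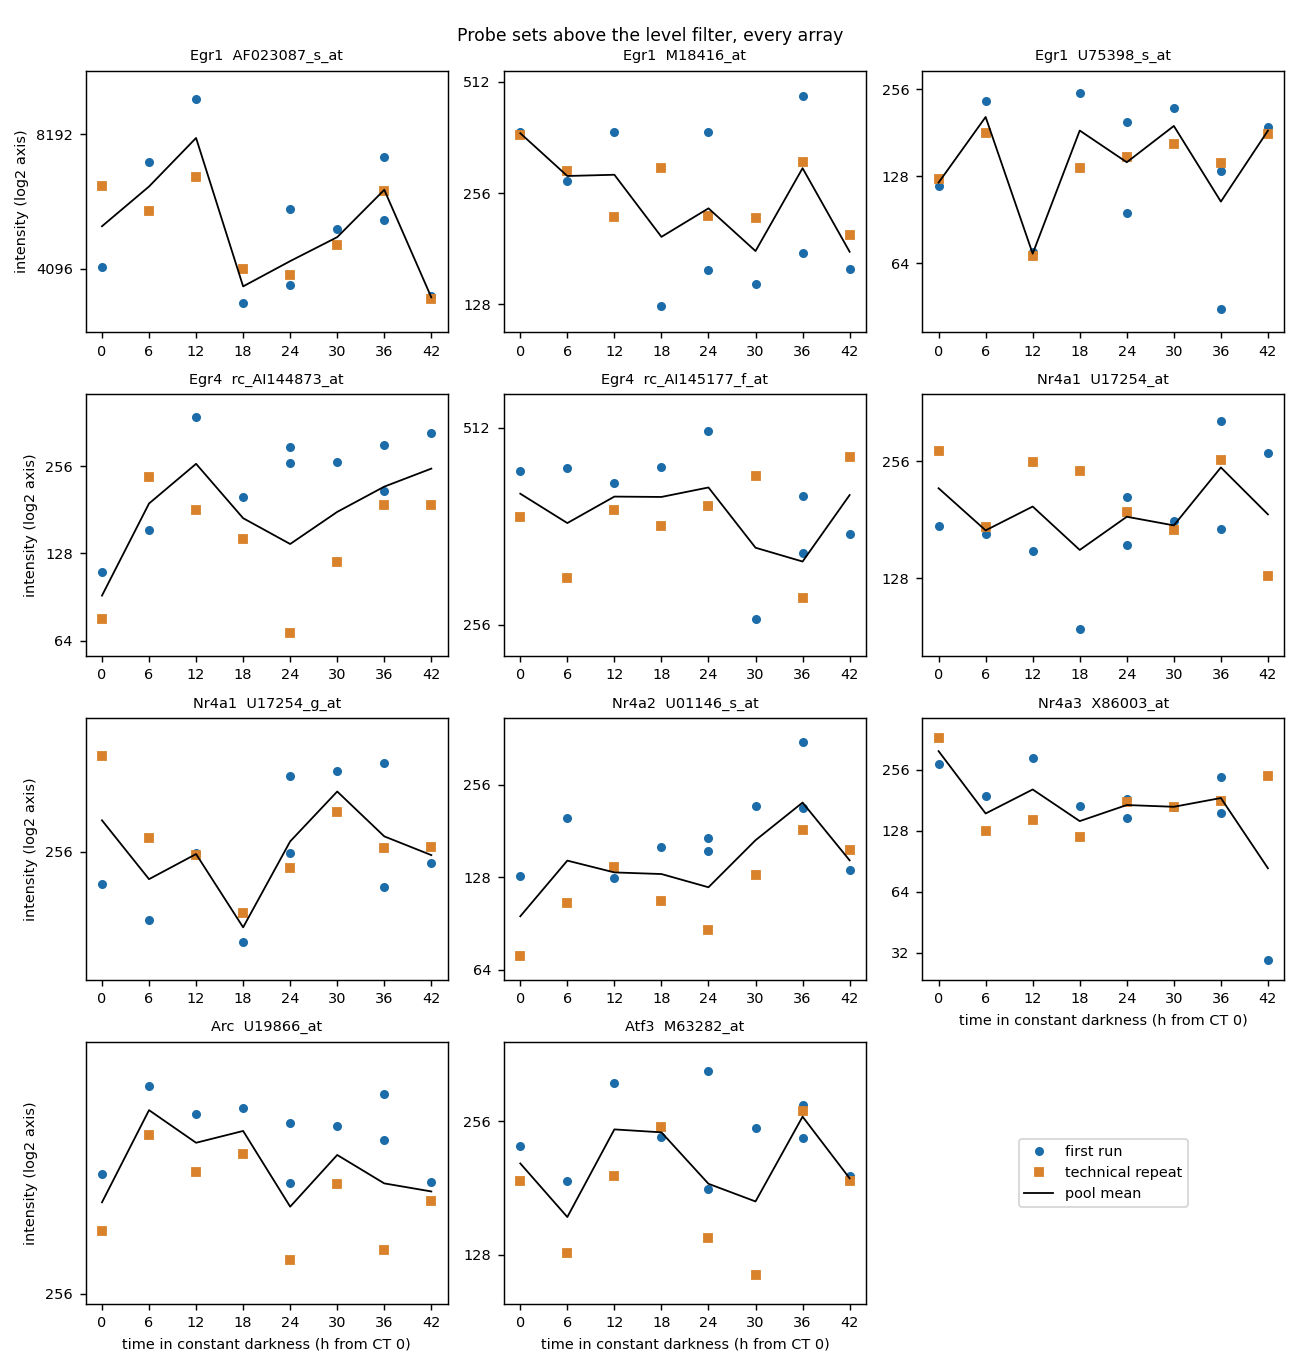
Intensity of the 11 tested probe sets on log2 axes against hours in constant darkness from CT 0, with 1 point per array (circles, first run; squares, technical repeat) and a line through the pool means. Egr1 AF023087_s_at has its highest pool at 12 h and 36 h within each day, Egr4 rc_AI144873_at its lowest at 0 h and 24 h, and Nr4a3 X86003_at has 1 low first-run array at 42 h, at 29.4.

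Over the whole set, 0 of the 11 tested probe sets passed an adjusted p of 0.05 for a 24 h rhythm, and 0 of all 4370 did (0%). At an unadjusted p under 0.05 there were 2 members, Egr1 AF023087_s_at and Egr4 rc_AI144873_at, against 6.36% of all tested probe sets. That count was 1 without the 0 h, 6 h, 18 h, 24 h or 36 h pool and 1 in the first run alone. The median amplitude of the members was 0.28 against 0.16 over all tested probe sets, and their median SD over the 8 pools was 0.36 against 0.23, both on the log2 scale. The median SD of a pool mean between the runs was 0.23 for the members and 0.21 for all. The pools hold different animals and the runs the same RNA, so the first SD includes differences between animals and the second does not. Apart from Egr1 AF023087_s_at, the tested members had mean intensities of only 141 to 380. These comparisons with all tested probe sets were not matched for level.

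For CT 12 against CT 0, 0 of 11 members passed the adjusted threshold, as did 0 of all 4370 (0%). At an unadjusted p under 0.05 there were 3, Egr4, Nr4a2 and Egr1, all higher at CT 12, against 4.19% of all tested probe sets that were higher at that p and 8.67% in either direction. The count was 1 without the 36 h pool and 1 in the first run alone. Both CT 12 pools lay above both CT 0 pools in 5 of 11 members, those 3 with Arc and Atf3, against 23.2% of all, and the reverse held in 2, Egr1 U75398_s_at and Egr4 rc_AI145177_f_at, against 21.6%. The median member difference was 0.13, with 6 above 0, which is so for 51.1% of all tested probe sets, whose median was 0.01, and 5 below. Of 8 marker lists of cell types, 2 had sums that did not overlap between CT 12 and CT 0. The sum of 7 astrocyte markers was 45040 to 46290 at CT 12 and 40560 to 42940 at CT 0, but only 3 of the 7 had a difference above 0 and their median difference was -0.0019. The sum of the pan-neuronal markers Snap25 and Syp was 1494 to 2009 at CT 12 and 2163 to 2459 at CT 0. The part of these cells in the members' differences was not tested.

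For CT 6 against CT 18, 0 of 11 members passed, against 0.0229% of all tested probe sets, which is 1 probe set. At an unadjusted p under 0.05 there was 1, Egr1 AF023087_s_at, against 4.26% of all, and there were 0 without the 6 h, 18 h, 24 h or 36 h pool and 2 without the 30 h pool. Both CT 6 pools lay above both CT 18 pools in 3 members, against 14.1% of all, and below them in 2, against 17.3%. Of the 8 marker lists, 4 had sums higher at both CT 6 pools than at both CT 18 pools, the same direction as Egr1 AF023087_s_at. The sums at CT 6 and CT 18 were 7076 to 7532 and 5811 to 6441 for choroid plexus, 14590 to 15200 and 13610 to 14500 for SCN neurons, 43620 to 44600 and 37950 to 43070 for astrocytes, and 437 to 451 and 336 to 432 for vessels. The median log2 differences of these lists between CT 6 and CT 18 were, in the same order, 0.25, 0.05, 0.16 and 0.17. In each of these 4 lists single markers differed in both directions. The largest difference was that of Ttr in the choroid plexus list, 2.04 ± 0.37 on the log2 scale at a mean intensity of 140. In the same list Kl differed by -0.20 ± 0.28. The part of these cells in the members' differences between CT 6 and CT 18 was not tested.

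**Figure D3:**
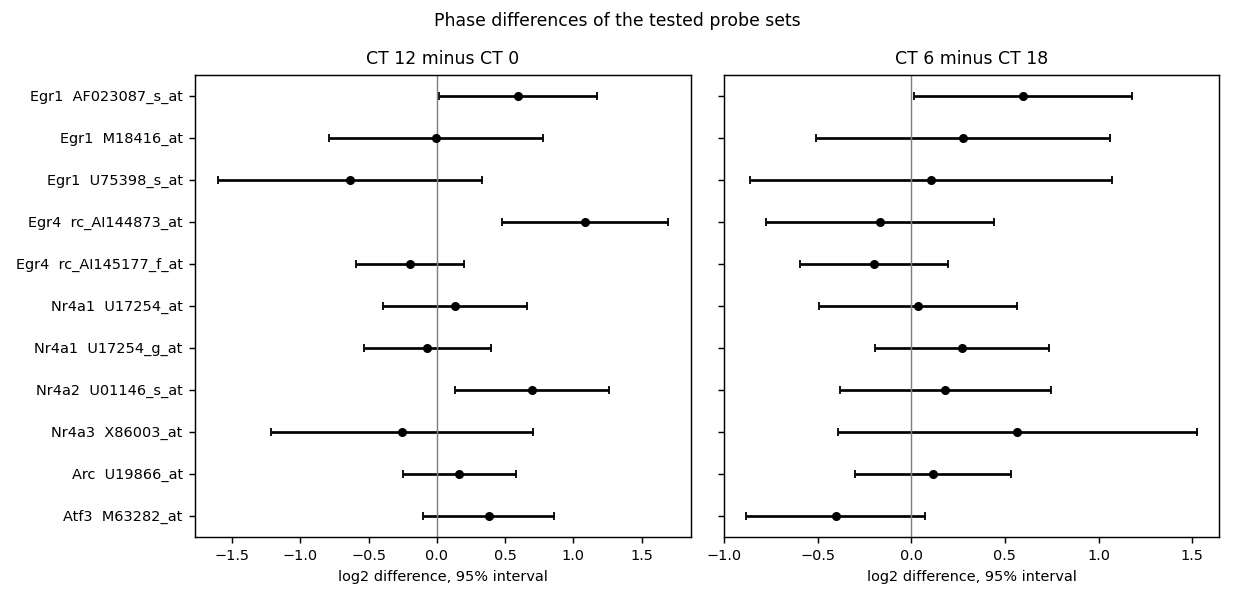
Fitted log2 difference of each tested probe set between CT 12 and CT 0 (left) and between CT 6 and CT 18 (right), with limma's 95% interval, unadjusted, from 8 pools. The intervals of Egr1 AF023087_s_at lie above 0 in both panels, and those of Egr4 rc_AI144873_at and Nr4a2 U01146_s_at do so only for CT 12 minus CT 0, while the other members' intervals span 0 in both.

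For the second day against the first, 0 of 11 members passed the adjusted threshold, as did 0 of 4370 (0%), and 1 member, Nr4a2 U01146_s_at, had an unadjusted p under 0.05, against 3.96% of all. Without the 0 h, 12 h, 24 h, 30 h or 42 h pool that count was 0, and it was 3 without the 18 h pool and 2 without the 6 h or the 36 h pool. In 0 of 11 members did all 4 pools of the first day lie above those of the second, against 0.961% of all, or below them, against 0.915%. An interaction between phase and day, added after the data were seen, passed in 0 of 11 members and in 0 of 4370 probe sets (0%), with 0.9998 as the lowest adjusted p of a member (limma), and 0 members had an unadjusted p under 0.05, against 3.8% of all. For the phases CT 6 and CT 18 against CT 0 and CT 12, 4 of 11 members had an unadjusted p under 0.05, against 7.30% of all tested probe sets, and 0 passed the adjusted threshold, as did 0 of all. The comparison was chosen for the pattern of Egr1 U75398_s_at, which is among the 4, so nothing is read from that share. Those were 2 probe sets below 0 and 1 above 0 for Egr1, and Nr4a3 X86003_at below 0.

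The members did not move as 1 group. Over the 8 pools, Egr4 rc_AI144873_at and Nr4a2 U01146_s_at correlated with r = 0.65, and Egr1 M18416_at and Nr4a3 X86003_at with r = 0.79. Egr1 AF023087_s_at correlated with Egr4 rc_AI144873_at only with r = 0.24, and Egr4 rc_AI145177_f_at with Nr4a2 U01146_s_at with r = -0.86. The highest phase was the same in both runs for 6 of 11 members and for 30.1% of all tested probe sets, and the highest pool was the same for 4 of 11 and for 14.2% of all. Both runs read the same RNA, so this describes the repeatability of the reading and not that of the animals.

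Egr2, Egr3 and Crem lay below the level tested in all of their probe sets. Egr2 (U78102_at) had pool means of 104, 118, 124, 112, 80.5, 83.6, 143 and 108, highest at CT 12 on both days, although its runs disagreed at 18 h, with 68.9 in the first run and 181 in the repeat. Egr3 (U12428_at) read 224, 164, 225, 138, 156 and 224 (24 h a and b), 79.0, 277 and 386 (36 h a and b), and 241 in the first run, and 14.1, 23.2, 23.7, 81.2, 11.4, 26.1, 32.6 and 25.5 in the repeat. It was lower in the repeat in 8 of 8 pools and by 7.30-fold on average, with the floor of 12.1 standing for the lowest array. A drop by over 4-fold between the runs occurred in 1 of the 21 members and in 1.52% of the 8740 probe sets that are no controls.

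Crem, whose product ICER is a repressor induced through cyclic AMP, had 4 probe sets with means of 19.1, 47.3, 82.6 and 23.2. S66024_at lay at or below the floor on 10 of the 18 arrays, Z15158mRNA_at on 5 and U04835_at on 1. U04835_at was higher in the repeat by 1.30 on the log2 scale, and higher in 7 of 8 pools. S66024_g_at had pool means from 29.8 at 0 h to 61.4 at 24 h, which are pools of the same phase.

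**Figure D4:**
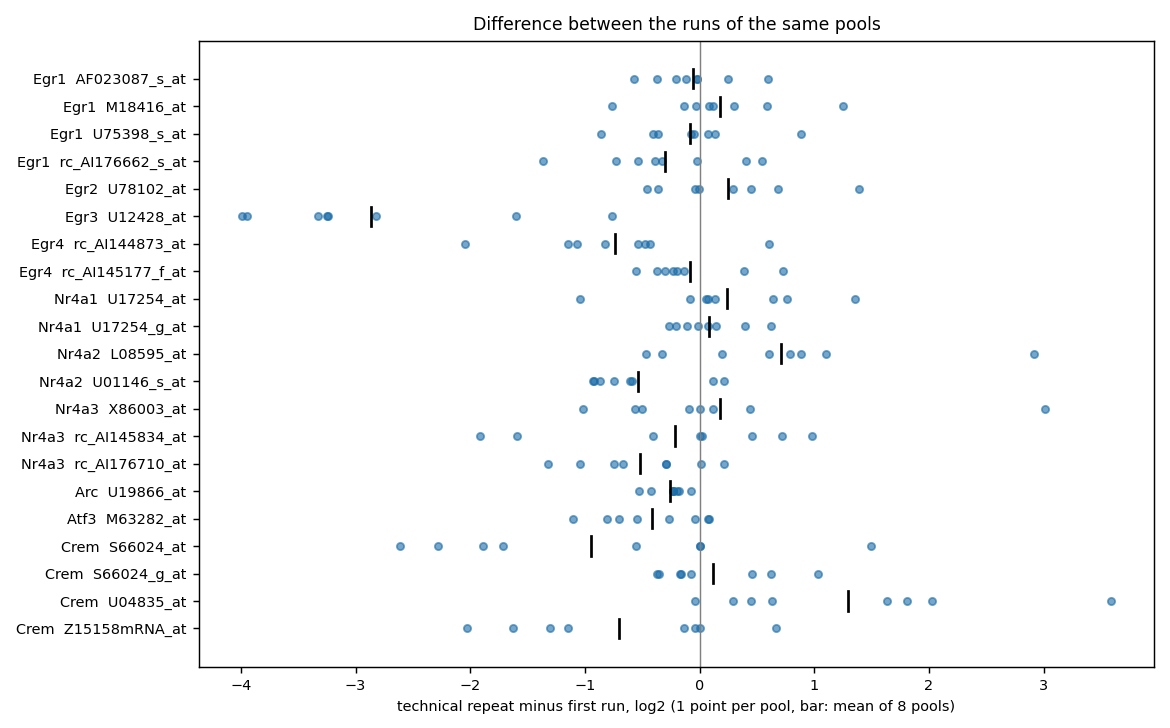
Difference between the technical repeat and the first run on the log2 scale for each of the 21 probe sets, with 1 point per pool and a bar at the mean of the 8 pools. Egr3 U12428_at lies at a mean of -2.87 with every pool below 0, Crem U04835_at has a mean of 1.30, and the tested probe sets have means between -0.74 and 0.24.

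Other activity-dependent genes and the pathway upstream were counted in the same fit, on 1 probe set per gene, and 0 passed the adjusted threshold for the rhythm in any of the 6 lists. Of 7 AP-1 genes 2 were tested, Jun with an amplitude of 0.30 ± 0.14 and Fos with 0.17 ± 0.11. Of 26 other immediate early genes 10 were tested, and 1 had an unadjusted rhythm p under 0.05: Cebpd, a transcription factor of the acute response, which peaked at CT 13.2 with 0.47 ± 0.14 (limma, adjusted p = 0.746). In this list Sgk1, a kinase, followed, peaking at CT 13.3 with 0.54 ± 0.21, then Ier3 with 0.26 ± 0.10 and Ier5 with 0.45 ± 0.18. Of 18 effector genes 13 were tested, led by Plat, which encodes tissue plasminogen activator, at 0.39 ± 0.08 with a peak at CT 23.2 (limma, adjusted p = 0.746). The phosphatases Dusp5 and Dusp6 and the secreted Nrn1 had amplitudes of 0.18 ± 0.09, 0.29 ± 0.15 and 0.28 ± 0.19.

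Upstream of the set, 10 of 19 kinases were tested and 0 had an unadjusted rhythm p under 0.05, with a median amplitude of 0.10. Of 12 upstream transcription factors, 1 was tested, Mef2d, which exceeded its CT 0 level at CT 12 by 0.62 ± 0.28 and had an amplitude of 0.31 ± 0.14. Of 7 partners and corepressors 3 were tested, and Rxrb, a retinoid X receptor that pairs with Nr4a1 and Nr4a2, had an amplitude of 0.23 ± 0.14. The median amplitude over all tested probe sets was 0.16, and the lists' medians lay between 0.10 and 0.31.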

How the data were processed

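The deposited values are linear intensities per probe set; how they were summarised from the probes is not given in the sources used here. Per the labels' protocols, tissue of single rats was extracted separately and the RNA of a time point was pooled. Means after trimming 2% at each end were 500.7 to 500.8 on the 18 arrays, and the values were used as deposited, with the number of arrays limiting precision.

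Intensities under the 10th percentile of the table (12.1) were set to it and transformed to log2. Arrays a and b, assumed to read 1 pool, were averaged, then the runs. The replicate was the pool. The 59 control probe sets were left out. The 4370 probe sets above the median level of the others were fitted in R 4.3.3 with lmFit and eBayes of limma 3.58.1 (24 h cosine and sine, 5 residual and 5.13 prior degrees of freedom), with Benjamini-Hochberg adjustment over all of them. With the median taken over controls too, which was tried first, Nr4a2 L08595_at would have been tested as well. Phase differences are the cosine or sine terms, and the day is an added term. Fits were tested on simulated pools of 4370 probe sets, of which 100 were given a rhythm. The fit recovered 44% of these at an amplitude of 0.5 and 85% at an amplitude of 1. A rhythm of the size fitted for the members, 0.07 to 0.55, could thus be missed. P-values reflect the spread between 8 pools, with 2 per phase.

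Symbols came from the platform annotation (7006 probe sets with 1 symbol, 308 with several, 1426 with none). RefSeq changed 0 of them. All member probe sets were named, up to 4 genes per list by rhythm p, and the 5 probe sets most like the leading member. The members and lists were chosen with earlier results of these data known. The comparison of CT 6 and CT 18 with CT 0 and CT 12 and the day interaction were added after the data were seen. Alternatives were other normalizations, floors, level filters and variance models, single runs, arrays or pools left out, 4 phases as a factor, and the run as a block.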

Additional observations from a re-analysis of the deposited data

How the results depend on the processing

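No member passed an adjusted p of 0.05 for the rhythm, either phase difference or the day under any of the 22 or 23 alternatives run for each. The lowest adjusted p of a member was 0.372 for the rhythm, 0.621 for CT 6 against CT 18, 0.301 for CT 12 against CT 0 and 0.590 for the day, and all of these tests are limma's. With the run as a replicate block over single arrays, 0 members passed as well, and the rhythm amplitudes were 0.41 for Egr1 AF023087_s_at and 0.42 for Egr4 rc_AI144873_at. The labels give no numbers that pair the pools, and the correlation of arrays within a pool in that fit was -0.04. Counts at an unadjusted p under 0.05 moved from 1 to 5 for the rhythm, 0 to 2 for CT 6 against CT 18, 1 to 4 for CT 12 against CT 0 and 0 to 3 for the day, and the cause was not tested. The difference of Atf3 M63282_at between CT 6 and CT 18 turned to 0.0156 in the first run alone. None of the other differences recomputed for single probe sets changed sign. Differences were recomputed only for the members with the lowest p of each comparison, and a rhythm amplitude cannot change sign because it is never negative. Leaving out 1 pool gave 0.38 to 0.65 for the rhythm amplitude of Egr4 rc_AI144873_at, 0.33 to 0.53 for Egr1 AF023087_s_at and 0.24 to 0.53 for Nr4a2 U01146_s_at. Scaling to the median gave a median shift of 0.01 (log2), but single arrays moved by more, since array medians ran from 107.9 to 152.3. The rhythm amplitude was then 0.50 for Egr4 rc_AI144873_at and 0.41 for Egr1 AF023087_s_at. Over all tested probe sets, 326 had an unadjusted rhythm p under 0.05 (limma), against 278 without this scaling. With 2 pools per phase and runs that differ, members under the tested level have no readable course.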
